A study of Mus musculus with 11 samples.

Results

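Transcripts of 10 genes of ketone body use and branched-chain amino acid (BCAA) breakdown were measured in mouse hearts after myocardial infarction (MI). They were chosen by symbol from the 55421 Ensembl genes of the count table, and all 10 of 10 were found: Bdh1, Oxct1, Acat1, Bcat2, Bckdha, Bckdhb, Dbt, Ivd, Mccc1 and Mccc2. The 11 hearts came from female C57BL/6J mice of 8 weeks, 3 days after surgery. In the DMSO group (4 mice) the left anterior descending artery was ligated and the solvent DMSO was given. The A10i group (4 mice) had the same ligation and received GI254023X, an inhibitor of the metalloprotease ADAM10, at 100 mg/kg. The Sham group (3 mice) had the operation without ligation and also received DMSO. The tissue was infarct plus border zone in ligated hearts and healthy heart in Sham mice, so injured tissue was compared with uninjured heart. Each library came from 1 mouse, and p-values measure the spread between these mice.

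Ketone bodies made by the liver are burned in heart mitochondria. Bdh1 oxidises 3-hydroxybutyrate to acetoacetate, Oxct1 transfers coenzyme A onto acetoacetate, and Acat1 splits the product into acetyl-CoA. Leucine, isoleucine and valine lose their amino group through Bcat2, after which a mitochondrial dehydrogenase complex removes carbon dioxide in the committed step. Bckdha and Bckdhb are the paired subunits of its decarboxylase and Dbt is its acyltransferase core. Ivd then oxidises the leucine product isovaleryl-CoA, and Mccc1 and Mccc2, the biotin-bearing and the carboxyltransferase subunits of methylcrotonyl-CoA carboxylase, carry the next step. Acat1 also acts at the end of isoleucine breakdown, so that it stands in both routes.

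The libraries held 21702659 to 29511782 counts. The lowest raw count of a member was 646 (Bckdhb in a DMSO mouse), for which counting error alone was 3.93%, and the highest was 39213 (Oxct1 in a Sham mouse). Transcripts of the mitochondrial genome took 21.5 to 22.2% of the counts in Sham mice, 14.8 to 18.6% in DMSO mice and 15.7 to 17.9% in A10i mice. The 12 cardiomyocyte markers, such as Myh6 and Tnnt2, were present in every group, with a summed normalised count, in units of 1e6, of 2.28 to 2.34 for Sham, 1.17 to 1.65 for DMSO and 1.32 to 1.80 for A10i hearts. Myh6 was the largest part of this sum, with a mean of 977671 normalised counts for Sham and 429226 for DMSO hearts. Tnnt2 had means of 176191 and 189163, so the markers did not fall alike. In bulk tissue, fewer cells of a type and less RNA per cell cannot be told apart.

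Per transcript length, Oxct1 was the most abundant member in healthy heart. Its level in Sham mice was 397 ± 2.64 FPKM (fragments scaled to exon length and TMM-normalised library size, mean ± SD, n = 3), followed by Acat1 at 146 ± 4.51, Bckdha at 128.1 ± 3.05 and Ivd at 76.9 ± 1.64 FPKM. Bdh1 (27.8 ± 1.62 FPKM), Bcat2 (27.8 ± 0.387) and Bckdhb (27.6 ± 0.270) followed and did not differ beyond their spread, with Dbt at 25.6 ± 0.622, Mccc2 at 21.5 ± 0.677 and Mccc1 at 13.99 ± 0.194 FPKM below them. The transcript models of Mccc1 span 10952 exon bases, by far the longest of the members, which lowers its value per length. In DMSO mice the first 4 kept their order, with Oxct1 at 243 ± 58.5 FPKM and Acat1 at 123 ± 13.8 FPKM (n = 4). Bcat2, at 27.4 ± 3.26 FPKM, then stood above Bckdhb (20.2 ± 4.50), Dbt (18.3 ± 5.31) and Bdh1 (17.99 ± 5.11), and these 3 lay within each other's spread. In A10i mice Bdh1 was at 29.5 ± 4.79 FPKM, next to Bcat2 at 27.4 ± 3.16 FPKM, and Oxct1 was at 317 ± 39.2 FPKM. The decarboxylase subunits did not have equal transcript levels, since Bckdha exceeded Bckdhb in FPKM in each group.

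The members lie on 7 chromosomes of the mm10 (GRCm38) genome. Bdh1 is at chr16:31422280-31458901 on the plus strand, Oxct1 at chr15:4026383-4155344 (plus), Mccc1 at chr3:35959312-36000678 (minus) and Bcat2 at chr7:45570153-45589711 (plus). Their upstream sequences are shown because these are the ketone pair with the largest fitted differences between the infarcted groups, the member that fell in both comparisons with Sham, and the member with nearly equal levels in all groups. Each run is the 200 bases just before the outermost annotated start of the gene, 5′ to 3′ on its own strand, from RefSeq (GRCm38.p6). The start used in the heart was not measured. Capitals mark the CACCC box (CACCC, or GGGTG on the other strand) and the GC box (GGGCGG, or CCGCCC on the other strand).
Bdh1, chr16:31422080-31422279: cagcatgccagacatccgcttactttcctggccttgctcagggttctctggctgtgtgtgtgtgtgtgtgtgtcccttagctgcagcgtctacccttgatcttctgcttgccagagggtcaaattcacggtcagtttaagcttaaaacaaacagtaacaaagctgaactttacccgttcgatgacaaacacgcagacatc
Oxct1, chr15:4026183-4026382: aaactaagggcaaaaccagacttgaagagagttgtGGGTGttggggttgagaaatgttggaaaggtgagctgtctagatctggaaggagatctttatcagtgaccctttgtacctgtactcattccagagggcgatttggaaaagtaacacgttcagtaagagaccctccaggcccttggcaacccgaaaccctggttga
Mccc1, chr3:36000679-36000878: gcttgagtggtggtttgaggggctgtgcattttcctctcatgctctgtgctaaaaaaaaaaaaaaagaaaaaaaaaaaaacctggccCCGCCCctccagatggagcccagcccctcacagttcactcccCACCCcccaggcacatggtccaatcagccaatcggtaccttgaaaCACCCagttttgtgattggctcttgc
Bcat2, chr7:45569953-45570152: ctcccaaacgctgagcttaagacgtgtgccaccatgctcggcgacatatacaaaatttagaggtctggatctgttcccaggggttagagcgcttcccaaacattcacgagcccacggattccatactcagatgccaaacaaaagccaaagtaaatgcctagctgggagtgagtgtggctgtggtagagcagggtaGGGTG

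RefSeq promoters were matched for 8 of the 10 members, and for 6 of these the 200 bases before the annotated start were covered. The CACCC box was found in 5 of these 6 windows, against 45.5% of the 200-base windows before all 32851 RefSeq starts, and the GC box in 1 of 6 against 31% of all windows. The CCAAT box (CCAAT on either strand) was in 3 of 6 against 29.3%, and the E-box (CACGTG) in 1 of 6, that of Mccc2, against 5.26%. The half-site of nuclear receptors (AGGTCA) and the longer estrogen-related receptor element that contains it (TCAAGGTCA) were in none of the 6, against 11.4% and 0.277% of all windows. The windows of the 4 members printed above held 47.5 to 51.5% G and C, against a median of 53% over all windows. Those of Ivd (55%) and Mccc2 (62.5%) were above that median. These matches describe letters in a window and no more.

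**Figure D1:**
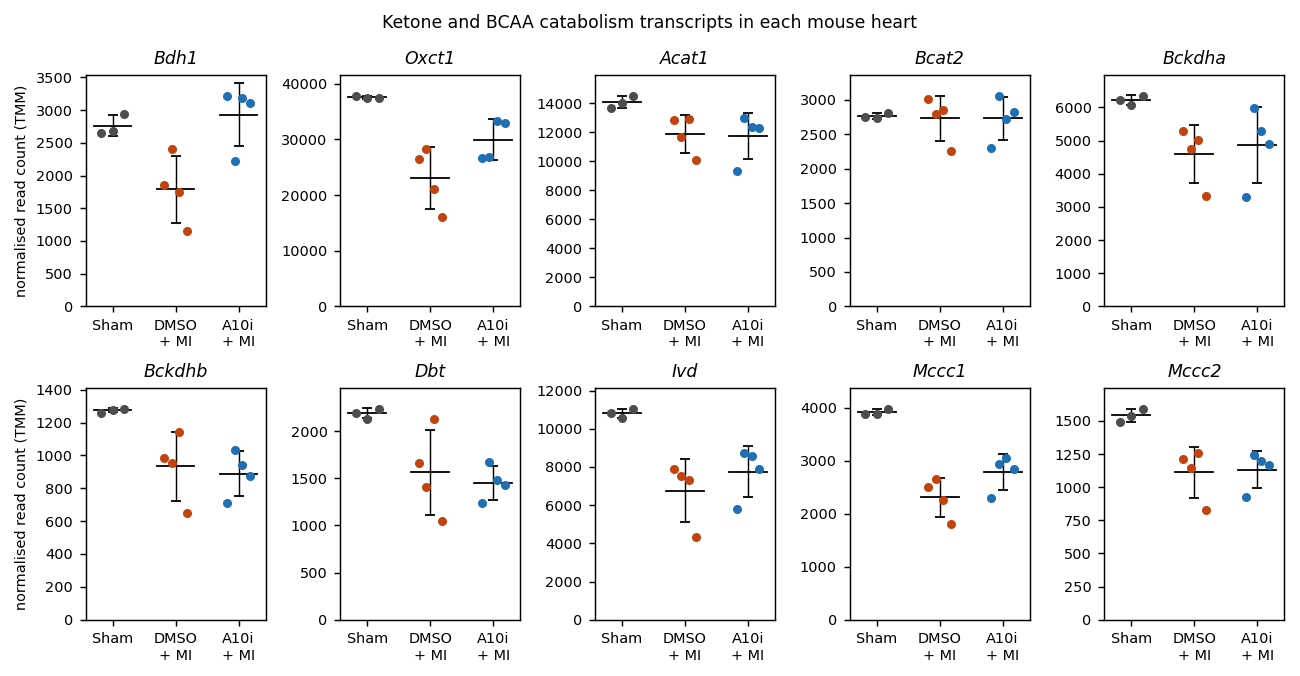
TMM-normalised read count of each of the 10 members (y axis, starting at 0) in each mouse of the Sham, DMSO + MI and A10i + MI groups. Each point is 1 mouse, bars are the mean and whiskers ± SD. Sham mice lie close together in each panel. Bcat2 has nearly equal means in the 3 groups, and Bdh1 is lower in the DMSO group than in the others.

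The first comparison, DMSO against Sham, asked how these transcripts stood in the infarct and border zone. The fitted values of all 10 members were below Sham, with log2 fold changes of −0.77 to −0.02 and a median of −0.48, where the median over all 17117 genes tested was 0.00. Scaled to cardiomyocyte markers, 6 of them turned positive, and Bcat2 did so with library size alone as well. Mccc1 fell, to 58.8% of Sham. It was the 1 member of 10 past an adjusted p of 0.01 (edgeR quasi-likelihood test, Benjamini-Hochberg adjustment over all genes tested), and 9.6% of all genes tested were called lower by that rule. No member was called higher, against 12.9% of all genes. The count of 1 in 10 is therefore at the background. At an adjusted p of 0.05, 7 members were lower (background 18.4%). DESeq2's Wald test called 5 members lower at 0.01 (background 13.4%), namely Bdh1, Oxct1, Ivd, Mccc1 and Mccc2. Each DMSO mouse was below each Sham mouse in 8 members, all but Bcat2 and Dbt, and 23.6% of all genes had groups separated in that way.

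The second comparison, A10i against Sham, used the same 3 Sham mice, so its values are not independent of the first. Of the fitted values, 9 were below Sham, and the log2 fold changes ran from −0.59 to 0.09 with a median of −0.40, against −0.01 over the 16971 genes tested. Scaled to cardiomyocyte markers, Oxct1, Acat1, Bcat2 and Bckdha turned positive. Dbt, Bckdhb, Mccc1 and Mccc2 fell, 4 of 10 members (edgeR, adjusted p under 0.01), where 9.11% of all genes were called lower. No member was called higher, against 13.7% of all genes. At an adjusted p of 0.05 the number of lower members was 6 (background 17.6%), and DESeq2 called 6 lower at 0.01 (background 12.2%). In 8 members, all but Bdh1 and Bcat2, each A10i mouse was below each Sham mouse (background 23.5%). The number of calls was 1, that of Dbt, when any of the Sham mice S1, S2 or S3 was left out, and the lower calls over all genes then went from 1546 to between 543 and 602. It was 2 without A10i mouse A120 (1032 lower calls over all genes) and 0 when all 11 libraries shared 1 fit (932 over all genes).

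The third comparison, A10i against DMSO, is the test of whether the inhibitor changed these transcripts after MI. No member passed (edgeR, 0 of 10, background 0%), and DESeq2 and limma-voom also called 0 of 10 (DESeq2 background 1.4%). At an unadjusted p of 0.05, 1 member was higher, Bdh1, where 7.1% of all genes tested were higher by that rule. No member had A10i and DMSO mice without overlap (background 8.12%). The median log2 fold change of the members was 0.06, and 7 were above and 3 below 0.

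**Figure D2:**
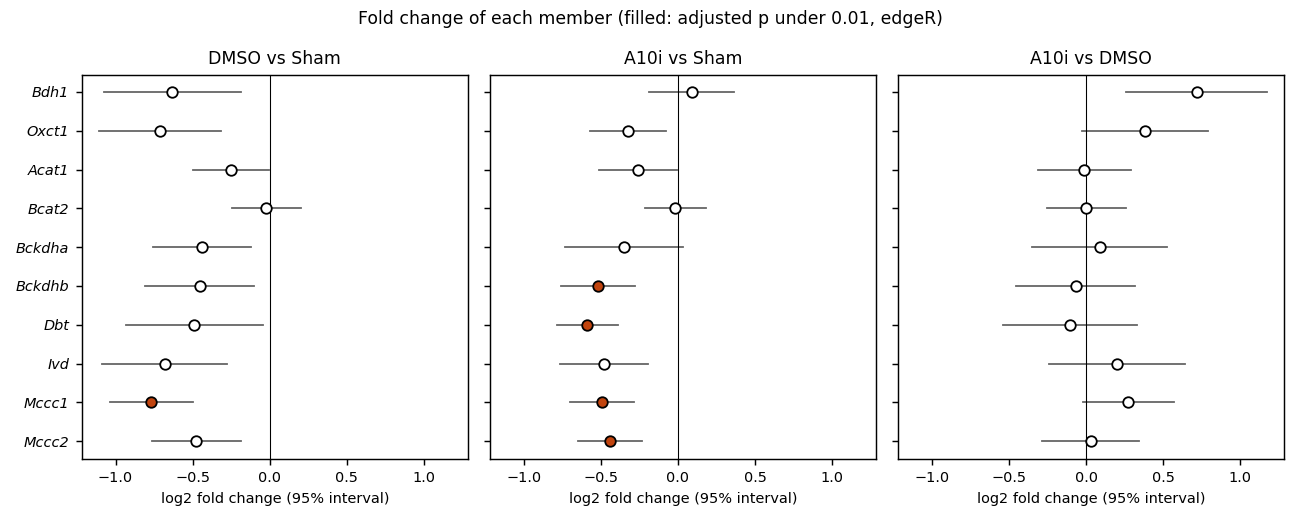
Log2 fold change of each member (x axis) in the 3 comparisons, with its 95% interval from edgeR. Filled points passed an adjusted p of 0.01. Mccc1 alone is filled in DMSO vs Sham, Bckdhb, Dbt, Mccc1 and Mccc2 in A10i vs Sham and none in A10i vs DMSO, where the interval of Bdh1 does not reach 0.

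Among the ketone enzymes, Bdh1 showed the largest difference between A10i and DMSO mice. Its normalised counts were 2656, 2680 and 2946 in the Sham mice, 1850, 2398, 1744 and 1159 in the DMSO mice and 3221, 2222, 3178 and 3104 in the A10i mice. All DMSO mice were below Sham, 3 of the 4 A10i mice were above the highest Sham mouse, and A10i mouse A117 was below DMSO mouse A127, so that the infarcted groups overlapped. Bdh1 was at 64.6% of Sham in DMSO mice (log2 fold change −0.63 ± 0.20 SE, adjusted p = 0.0312) and at 106% in A10i mice (0.09 ± 0.12, adjusted p = 0.595). Between A10i and DMSO the log2 fold change was 0.72 ± 0.20 (1.64-fold, 95% interval 0.26 to 1.17, unadjusted p = 0.00595), which did not pass after adjustment over all genes (edgeR, adjusted p = 0.176). The adjusted p was 0.0331 by DESeq2 and 0.168 by limma-voom. With each library left out in turn the log2 fold change stayed between 0.56 and 0.89, and over the 18 alternatives the adjusted p ran from 0.0331 to 0.42. An antisense gene, Gm15743, shares 13.7% of the Bdh1 exon bases on the other strand and had 14 to 53 counts per library, and the strand setting of the counting was not given in the sources used here.

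Oxct1, the enzyme that commits acetoacetate to oxidation outside the liver, had normalised counts of 37878, 37490 and 37411 in Sham mice. The DMSO mice had 26535, 28335, 21090 and 16124, and the A10i mice had 26687, 26788, 33373 and 32927. Both infarcted groups lay below Sham without overlap, and 2 of the A10i mice were within the DMSO range. Its log2 fold change from Sham was −0.71 ± 0.18 in DMSO mice (adjusted p = 0.0106, just outside the threshold) and −0.33 ± 0.11 in A10i mice (adjusted p = 0.0413, edgeR). A10i differed from DMSO by 0.38 ± 0.18 on the log2 scale (1.30-fold, 95% interval −0.03 to 0.79, adjusted p = 0.394). Acat1, the thiolase shared with isoleucine breakdown, was closer to Sham, with 13659, 14023 and 14522 in Sham mice, 12828, 11640, 12890 and 10073 in DMSO and 9359, 12953, 12373 and 12257 in A10i mice. Its log2 fold changes were −0.25 ± 0.11 in DMSO mice (adjusted p = 0.0984) and −0.26 ± 0.11 in A10i mice (adjusted p = 0.0964), and A10i and DMSO means differed by −0.01 (95% interval −0.31 to 0.29).

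The transaminase Bcat2 had nearly the same level in the 3 groups. Its normalised counts were 2757, 2738 and 2812 in Sham mice, 3016, 2802, 2851 and 2265 in DMSO and 2309, 3063, 2726 and 2826 in A10i mice. The groups overlapped fully, with Sham inside the range of both infarcted groups. The log2 fold change was −0.02 in DMSO mice (95% interval −0.24 to 0.20) and −0.02 in A10i mice (95% interval −0.21 to 0.18), and A10i against DMSO gave 0.00 (95% interval −0.25 to 0.26). Its sign relative to Sham turned with other scalings, to 0.18 and 0.17 with library size alone and to 0.50 and 0.41 relative to the cardiomyocyte markers. The gene 0610005C13Rik overlaps 15.9% of its exon bases on the other strand, with 1 to 11 counts.

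Of the dehydrogenase complex, Bckdhb and Dbt fell in A10i mice, and no subunit passed the threshold in DMSO mice. Bckdha had 6230, 6062 and 6358 normalised counts in Sham mice, 5281, 4750, 5014 and 3342 in DMSO and 3299, 5982, 5288 and 4912 in A10i mice. DMSO and A10i mice were below Sham throughout, but 1 mouse in each group was far below the others. Its log2 fold change was −0.44 ± 0.14 (adjusted p = 0.0328) in DMSO and −0.35 ± 0.17 (adjusted p = 0.132) in A10i mice. B3gnt8 shares 61.7% of its exon bases on the other strand, with 102 to 198 counts per library.

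Bckdhb, the other decarboxylase subunit, had 1260, 1279 and 1284 normalised counts in Sham mice, 986, 953, 1145 and 648 in DMSO and 709, 1035, 939 and 874 in A10i mice. Both infarcted groups were below Sham, with a log2 fold change of −0.45 ± 0.16 in DMSO (adjusted p = 0.0452) and −0.52 ± 0.11 in A10i mice (adjusted p = 0.00445). Dbt, the acyltransferase core, had 2198, 2131 and 2236 in Sham mice, 1660, 1412, 2131 and 1050 in DMSO and 1237, 1669, 1481 and 1425 in A10i mice. DMSO mouse A128 was level with the lowest Sham mouse, while each A10i mouse was below Sham. Its log2 fold change was −0.49 ± 0.20 (adjusted p = 0.0768) in DMSO and −0.59 ± 0.09 (adjusted p = 0.000984, 66.5% of Sham) in A10i mice. The direct differences between A10i and DMSO were 0.09, −0.07 and −0.10 on the log2 scale for Bckdha, Bckdhb and Dbt, with 95% intervals of −0.35 to 0.52, −0.45 to 0.32 and −0.54 to 0.33. So the calls of Bckdhb and Dbt in A10i mice and not in DMSO mice were no difference between these groups that this test could detect.

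On the leucine branch, Mccc1 was called lower in both comparisons with Sham. Its normalised counts were 3883, 3884 and 3977 in Sham mice, 2507, 2658, 2258 and 1804 in DMSO and 2290, 2945, 3051 and 2840 in A10i mice. No infarcted heart reached the Sham range. The log2 fold change was −0.77 ± 0.12 in DMSO (adjusted p = 0.00121) and −0.49 ± 0.09 in A10i mice (71.2% of Sham, adjusted p = 0.00277). In DMSO mice it stayed past the threshold in 16 of 17 alternatives, the exception being the scaling to cardiomyocyte markers (−0.26, adjusted p = 0.058). In A10i mice it passed in 12 of 17. It did not pass without Sham mouse S1 (adjusted p = 0.0147), S2 (0.0142) or S3 (0.0158), in the fit of all 11 libraries (0.0111), or scaled to the markers (−0.07, adjusted p = 0.513). The direct difference of A10i from DMSO was 0.27 ± 0.13 (95% interval −0.02 to 0.57, adjusted p = 0.402).

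Its partner Mccc2 had 1494, 1540 and 1591 normalised counts in Sham mice, 1214, 1143, 1260 and 829 in DMSO and 925, 1243, 1197 and 1165 in A10i mice. The infarcted groups covered nearly the same range, below Sham. Mccc2 had a log2 fold change of −0.48 ± 0.13 in DMSO (adjusted p = 0.0155) and −0.44 ± 0.09 in A10i mice (adjusted p = 0.00474). Ivd, one step earlier, had 10832, 10583 and 11044 in Sham mice, 7869, 7526, 7319 and 4343 in DMSO and 5807, 8709, 8559 and 7901 in A10i mice. It was at 62.3% of Sham in DMSO (log2 fold change −0.68 ± 0.18, adjusted p = 0.0148) and at 71.7% in A10i mice (−0.48 ± 0.13, adjusted p = 0.0145). A10i and DMSO differed by 0.03 (95% interval −0.29 to 0.34) for Mccc2 and by 0.20 (95% interval −0.24 to 0.64) for Ivd.

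Single mice moved several members together. DMSO mouse A129 had the lowest value of its group in 10 of 10 members, and A10i mouse A116 was lowest of its group in 9 of 10 and highest in Bdh1. Sham mouse S3 was highest of its group in 9 of 10. The coefficient of variation of Oxct1 was 0.665% in Sham mice, 24.0% in DMSO and 12.4% in A10i mice, and that of Bdh1 was 5.83%, 28.4% and 16.2%. Without A129, 5 members rather than 1 were called lower in DMSO mice. The number was 2 without A105, 3 without A127 and 2 without A128. Lower calls over all genes were 1581 of 16901 without A129 and 1698 of 16970 without A105. They were 1277 of 16791 without A127 and 1763 of 16788 without A128.

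The cardiomyocyte markers were low in the same mice as the members. The mean log2 CPM (counts scaled to TMM-normalised library size) of the 12 markers was 12.27 to 12.33 in Sham mice, 11.53 to 11.95 in DMSO and 11.59 to 12.03 in A10i mice, with A129 and A116 the lowest of their groups. Of these markers 5 of 12 were called lower in DMSO and 3 of 12 in A10i mice against Sham. None was called higher, and none was at 0 in any group. Of all genes tested 9.6% and 9.11% were called lower. The markers differed among themselves, with log2 fold changes of −1.19 (Myh6) to 0.10 (Tnnt2) for DMSO and −0.79 to −0.02 for A10i. With libraries scaled to the markers as a set, Myh6 was still at −0.68 and Tnnt2 at 0.62 for DMSO. This scale therefore does not stand for a uniform fall of the markers. The mean of the members minus that of the markers was −4.79 ± 0.01 in Sham mice, −4.78 ± 0.16 in DMSO and −4.71 ± 0.05 in A10i mice (log2 CPM, mean ± SD). When libraries were scaled to these markers, the median log2 fold change of the members was 0.03 in DMSO and 0.02 in A10i mice, where the median of all genes moved to 0.53 and 0.43. No member was then called lower, and Bcat2 was called higher in DMSO (adjusted p = 0.00244) and in A10i mice (adjusted p = 0.0051, edgeR). Of 17117 genes tested in DMSO mice, 208 were then lower and 6631 higher. Of 16971 in A10i mice, 133 were lower and 5057 higher. Few genes of any kind were thus lower on this scale, and many were higher. In the comparisons with Sham, Bdh1 in A10i mice had the largest value of a member on this scale, 0.54 ± 0.16 (edgeR, adjusted p = 0.0198).

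**Figure D3:**
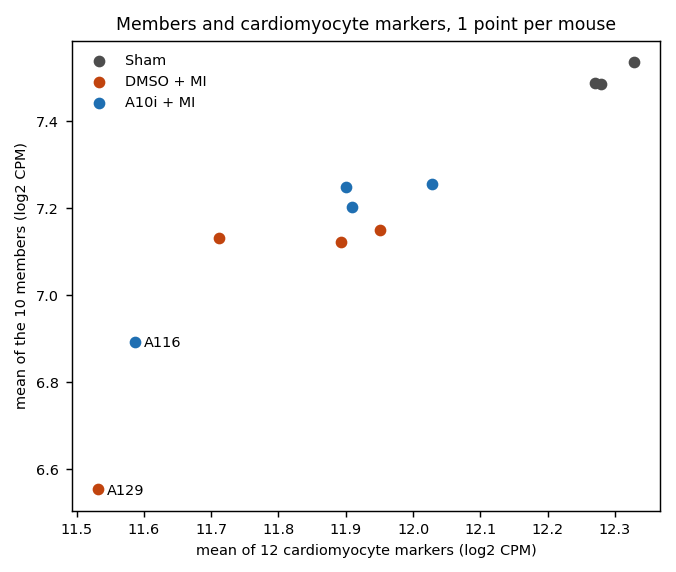
Mean log2 CPM of the 10 members (y axis) against the mean log2 CPM of 12 cardiomyocyte markers (x axis), 1 point per mouse, coloured by group. Sham mice are highest on both axes, and DMSO mouse A129 and A10i mouse A116 have the lowest values of their groups on both.

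Fibroblast, macrophage and neutrophil markers also differed between the groups. Of 8 fibroblast markers 4 were called higher in DMSO and 7 in A10i mice against Sham, of 8 macrophage markers 5 and 7, and of 7 neutrophil markers tested 7 and 6, while Ly6g was at 0 in Sham. Between A10i and DMSO the summed neutrophil markers were 378 to 1392 against 2088 to 4273 normalised counts, and the fibroblast markers 123380 to 228101 against 48790 to 163495. Of 8 endothelial markers 2 were lower and 1 higher in DMSO, and 1 lower and 1 higher in A10i mice. Of all genes tested 12.9% were called higher and 9.6% lower in DMSO, and 13.7% and 9.11% in A10i mice. The endothelial counts of 1 in 8 were thus near the background. None of 5 red blood cell transcripts was called in any comparison (edgeR, 0 at an unadjusted p of 0.05, 0 by DESeq2), with summed levels of 15119 to 33140 in Sham mice, 5933 to 94691 in DMSO and 26805 to 128443 in A10i mice. The part of these cells in the member results was not tested.

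Ratios of 2 transcripts within the same library do not depend on library scaling. The 6 ratios were compared in each comparison by an exact permutation test over mice (two-sided), which cannot give a p below 0.0571 with 3 Sham mice or below 0.0286 with 4 mice each. None passed 0.05 after adjustment over the 6.

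The carboxylase ratio Mccc1/Mccc2 had its lowest values in DMSO mice. Its log2 values were 1.38, 1.33 and 1.32 in Sham mice, 1.05, 1.22, 0.84 and 1.12 in DMSO and 1.31, 1.24, 1.35 and 1.29 in A10i mice. Each DMSO mouse was below each Sham and each A10i mouse. The difference of A10i from DMSO was 0.24 (means 1.30 ± 0.04 and 1.06 ± 0.16, exact permutation p = 0.0286, adjusted 0.171), in 4 of 4 mice, and that of DMSO from Sham was −0.29 (exact permutation p = 0.0571, adjusted 0.171). Both p-values are the smallest that the number of mice allows.

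The ketone ratio Bdh1/Oxct1 had its highest mean in A10i mice. Its log2 values were −3.83, −3.81 and −3.67 in Sham mice, −3.84, −3.56, −3.60 and −3.80 in DMSO and −3.05, −3.59, −3.39 and −3.41 in A10i mice. Each A10i mouse was above Sham (difference 0.41, exact permutation p = 0.0571, adjusted 0.114), and 1 A10i mouse lay within the DMSO range (difference 0.34, exact permutation p = 0.0571, adjusted 0.171).

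The subunit ratios of the dehydrogenase complex had smaller differences. Bckdha/Bckdhb had a mean log2 ratio of 2.29 ± 0.04 in Sham mice, 2.31 ± 0.13 in DMSO and 2.43 ± 0.14 in A10i mice, and Bckdha/Dbt one of 1.51 ± 0.003, 1.58 ± 0.23 and 1.72 ± 0.20, with overlapping groups (smallest exact permutation p = 0.229 against Sham and 0.257 between A10i and DMSO). Bckdk, the kinase that switches the complex off, relative to Ppm1k, the phosphatase that switches it on, was at −0.40 ± 0.13 in Sham mice, −0.18 ± 0.53 in DMSO and −0.09 ± 0.09 in A10i mice. The A10i mice were above Sham without overlap (exact permutation p = 0.0571, adjusted 0.114), and the DMSO mice were spread across both. Bcat1, the cytosolic transaminase, relative to the mitochondrial Bcat2 had a mean log2 ratio of −6.02 ± 0.54 in Sham, against −3.44 ± 0.80 in DMSO and −3.78 ± 0.74 in A10i mice, without overlap with Sham (exact permutation p = 0.0571 each, adjusted 0.171 and 0.114). That is a ratio 5.99 and 4.73 times that of Sham, and Bcat1 had 28.9 to 59.3 normalised counts in Sham mice.

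**Figure D4:**
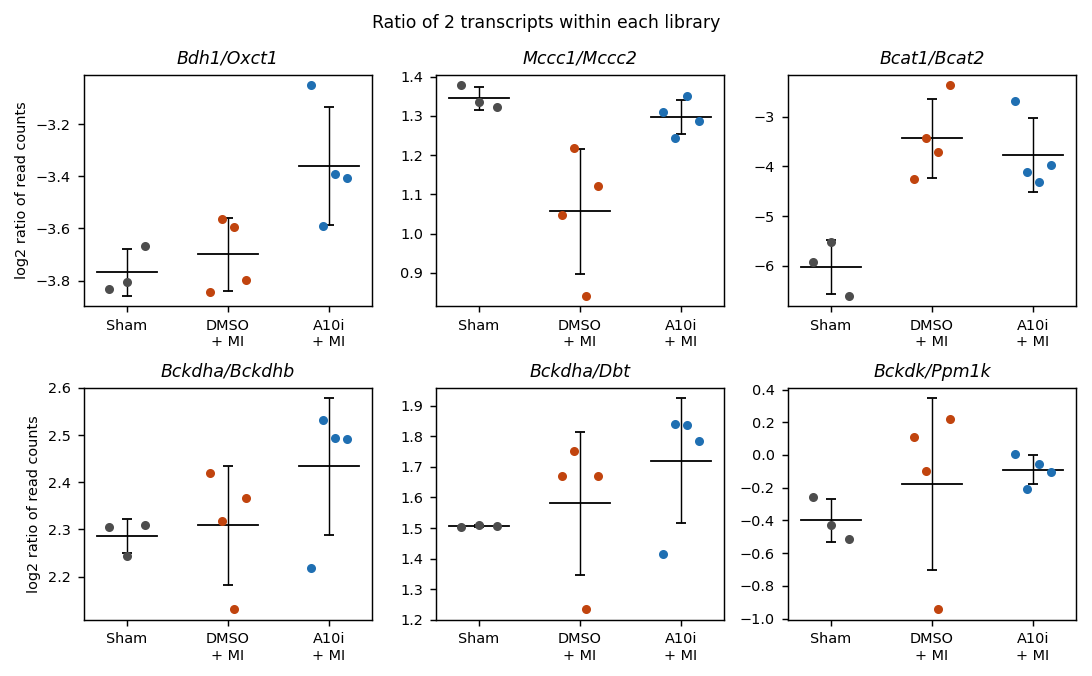
Log2 ratio of the read counts of 2 transcripts in the same library (y axis, each panel on its own scale) for the 6 ratios in the 3 groups. Points are mice, bars means and whiskers ± SD. DMSO mice lie below the others for Mccc1/Mccc2, and Sham mice lie below both infarcted groups for Bcat1/Bcat2.

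The other genes of these routes were read from lists by role. Of the 9 genes of BCAA entry and of control of the dehydrogenase (transporters, Bcat1, Dld, the kinase and phosphatase, and Klf15), 4 rose in DMSO mice and none fell, where 12.9% of all genes tested were called higher. Bcat1 rose from 44.5 ± 15.2 to 269 ± 121 normalised counts (log2 fold change 2.59 ± 0.39, adjusted p = 0.00136), and the amino acid transporter Slc7a8 rose from 91.5 ± 6.50 to 310 ± 107 (1.75 ± 0.26, adjusted p = 0.00108). The other two, named after their values were seen, were Slc7a5 (1.17 ± 0.25) and its heavy chain Slc3a2 (1.15 ± 0.10), which form the leucine transporter of the cell membrane. In A10i mice, where 13.7% of all genes were called higher, Bcat1 (2.25 ± 0.39, adjusted p = 0.00242), Slc7a8 (1.65 ± 0.22, adjusted p = 0.000633) and Slc3a2 (0.89 ± 0.09) rose, and Slc7a5 had 0.53 ± 0.19 (adjusted p = 0.0536). Klf15, a transcription factor of BCAA breakdown in muscle, fell in A10i mice (−0.67 ± 0.14, adjusted p = 0.00639, 62.8% of Sham) and had −0.71 ± 0.20 in DMSO mice (adjusted p = 0.0233). Bckdk and Ppm1k did not pass in either comparison with Sham, at −0.18 and −0.32 in DMSO and −0.18 and −0.48 in A10i mice.

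On the leucine, isoleucine and valine branches 3 of 8 genes fell in DMSO mice and 3 of 8 in A10i mice, and 5 of 8 did not pass in each. Of all genes tested 9.6% and 9.11% were called lower. No gene of this list rose, and the list medians were −0.51 and −0.37. Acad8, the isobutyryl-CoA dehydrogenase of valine breakdown, fell to 69.0% of Sham in DMSO (−0.53 ± 0.11, adjusted p = 0.00377) and 74.3% in A10i mice (−0.43 ± 0.09, adjusted p = 0.00414). Auh, the hydratase after methylcrotonyl-CoA carboxylase, fell to 69.0% in DMSO mice (−0.53 ± 0.09, adjusted p = 0.00214) and had −0.45 ± 0.12 in A10i mice (adjusted p = 0.0159). Of the 6 propionyl-CoA genes, which pass isoleucine and valine carbon into the citrate cycle, 5 fell in each comparison with Sham. Mmab, which makes the cobalamin cofactor, fell to 50.7% of Sham in DMSO (−0.98 ± 0.13, adjusted p = 0.000527) and 62.6% in A10i mice (−0.67 ± 0.07, adjusted p = 0.000182). Mmut, the mutase that uses it, fell to 61.3% (−0.71 ± 0.12, adjusted p = 0.00183) and 71.6% (−0.48 ± 0.09, adjusted p = 0.00294). Over the 5 pathway lists together, 8 of 35 genes tested (22.9%) fell in DMSO and 10 of 35 (28.6%) in A10i mice. With libraries scaled to cardiomyocyte markers 0 were called lower in either, where 208 of 17117 and 133 of 16971 genes tested were lower. The pathway counts were 1 or 2 with any Sham mouse left out. Lower calls over all genes were then 565 to 603 in DMSO and 543 to 602 in A10i mice. The pathway counts were 13 without DMSO mouse A129 (1581 lower over all genes) and 16 without A10i mouse A116 (1821 lower over all genes).

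In the remaining lists fewer genes passed. Of the 7 other ketone genes tested, Aacs, which uses acetoacetate for lipid synthesis in the cytosol, rose in DMSO (1.20 ± 0.15, adjusted p = 0.000456) and in A10i mice (0.99 ± 0.15, adjusted p = 0.000836). Bdh2, named after its values were seen, rose in A10i mice (1.75 ± 0.30, adjusted p = 0.00165) and had 1.08 ± 0.41 in DMSO mice (adjusted p = 0.0589). Oxct2a and Oxct2b were below the filter. Of 5 genes that attach biotin or lipoate, none passed in DMSO mice (edgeR, 1 at an unadjusted p of 0.05, 0 by DESeq2), and Hlcs, the biotin ligase, fell in A10i mice (−0.55 ± 0.12, adjusted p = 0.00485), also named after its value was seen. Of 14 citrate cycle enzymes, 1 fell in DMSO and 2 in A10i mice, with list medians of −0.39 and −0.29. Of all genes tested 9.6% and 9.11% were called lower. DESeq2 called 9 and 6 of the 14 (background 13.4% and 12.2% lower). In each comparison 13 of the 14 had groups without overlap, all lower than Sham (background 23.6% and 23.5%). Between A10i and DMSO no gene of these lists passed (edgeR, background 0%). At an unadjusted p of 0.05, 2 of 7 ketone genes and 1 of 6 propionyl-CoA genes were higher, against 7.1% of all genes tested. By that rule 2 of 9 entry and control genes were lower, and the share of all genes lower was not computed. DESeq2 called 0 (background 1.4%). The values relative to Sham share the scaling and the cell-type differences of the members, and scaled to cardiomyocyte markers the medians of the branch and propionyl-CoA lists in DMSO mice were 0.00 and −0.11.

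**Figure D5:**
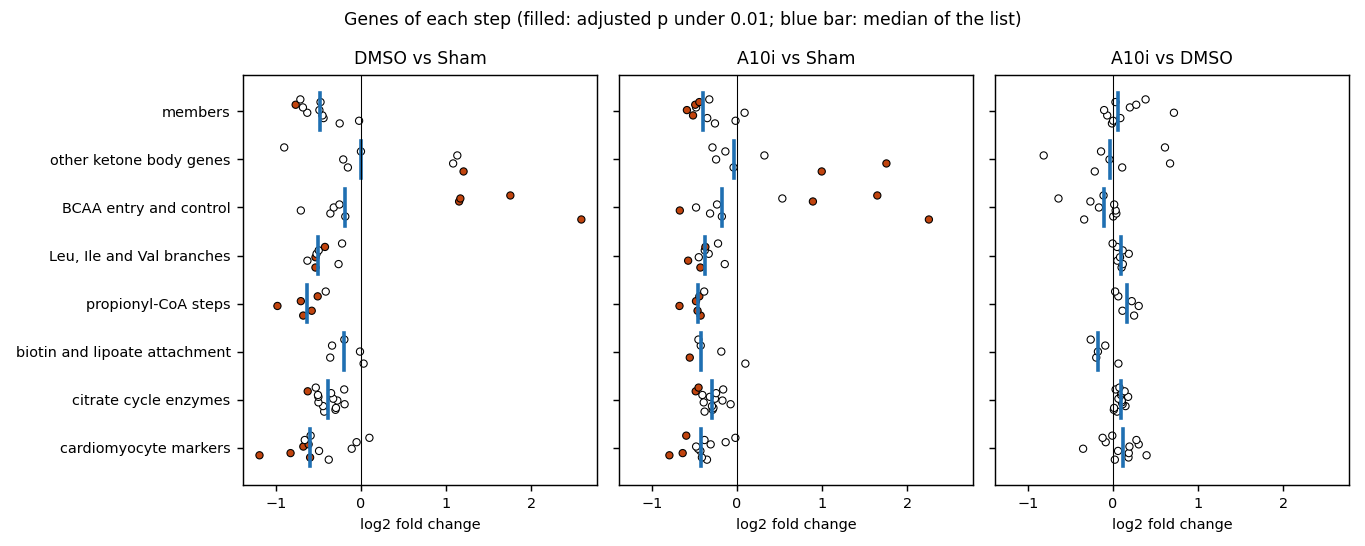
Log2 fold change (x axis) of every gene tested in the member, pathway, citrate cycle and cardiomyocyte lists, in the 3 comparisons. Each point is a gene, filled where the adjusted p was under 0.01, and blue bars are list medians. Against Sham the filled points of the branch and propionyl-CoA lists lie below 0 and those of the ketone list above 0. No point is filled in A10i vs DMSO.

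The transcripts whose pattern over the 11 libraries was most like the mean of the members were found among 17480 genes by the mean absolute difference of centred log2 CPM. Among the nearest outside the members were Echs1 (0.02), Hibadh (0.04), Chpt1 (0.04) and Rmdn1 (0.05). Echs1 and Hibadh are a hydratase and a dehydrogenase of valine breakdown. The members themselves ranged from 0.06 (Mccc2) and 0.08 (Bckdha) to 0.17 (Bcat2) and 0.28 (Bdh1) in the same measure, so that Bdh1, at rank 8340, was the least like the group. These differences are a description over 11 libraries that share groups and cell composition.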

How the data were processed

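Poly(A) RNA of 11 hearts was sequenced. The authors aligned read pairs to mm10 with GSNAP, assigned the unique alignments to Ensembl genes with featureCounts 2.0.1 (tools per the submitters' processing notes) and deposited the raw counts without normalization. The 92 spike-in rows (14 to 55 counts per library) were left out. Groups came from the sample labels. Symbols and positions came from GENCODE M21, which named 55154 identifiers. Fits used R 4.3.3 and edgeR 4.0.16 (filterByExpr, TMM, robust quasi-likelihood F-test, two-sided) on the libraries of each comparison, with Benjamini-Hochberg adjustment over all genes tested and a threshold of 0.01. DESeq2 1.42.0, limma-voom (limma 3.58.1), other scalings, filters, sample sets and a threshold of 0.05 were alternatives. Log2 CPM used a prior count of 2, and FPKM used the exon length in the deposited table. Permutation tests used scipy 1.17.1. The fits were tested on simulated counts with known changes.

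The members and lists were chosen with earlier results of these data known. Named genes were the members, the genes of the ratios, Klf15, list genes past the threshold in A10i vs DMSO, the 2 largest changes called in DMSO vs Sham in each list, and the 5 genes most like the members, of which 1 is not reported here. The strand setting of the counting, which bears on genes with antisense partners, was not given in the sources used here. Counting error covers sampling of fragments only.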

Additional observations from a re-analysis of the deposited data

Results flagged for a closer look

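Groups of 4 mice were searched for a lowest or highest mouse whose gap to the next was a larger share of the group's range than Dixon's critical value allows, over 60 groups of values (members, ratios and named pathway genes). Chance flags about 1 in 20 groups, and 6 values were found. Bdh1 in A10i mouse A117, at 2222 normalised counts, was far below the other 3 A10i mice, and Ivd in DMSO mouse A129, at 4343, was far below the other DMSO mice. Slc7a5 in A10i mouse A116 was at 427 normalised counts, far above the rest of its group. The same mouse had the lowest log2 ratio of Bckdha/Bckdhb (2.22) and of Bckdha/Dbt (1.42) among A10i mice. DMSO mouse A128 had the lowest Bckdha/Dbt log2 ratio of its group, 1.23.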

How the results depend on the processing

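Counts of called genes depended on the setting, except in the A10i against DMSO comparison. There no member or pathway gene was called under any alternative. That says little on how stable this result is, because the main edgeR fit called 0% of all genes tested there. It also called none of 7 neutrophil markers tested, of which DESeq2 called 6. DESeq2 called 1.4% of all genes there and no member. Members lower in DMSO mice numbered 1, against 5 by DESeq2, 0 scaled to cardiomyocyte markers (1 then higher), 3 without a filter, 2 in the fit of all 11 libraries, 7 at a threshold of 0.05 and 1 to 5 with a library left out. Members lower in A10i mice numbered 4, against 2 with library size alone, 0 scaled to the markers (1 then higher), 0 in the joint fit and 1 to 5 with a library left out. Pathway genes lower in DMSO mice numbered 8, against 15 by DESeq2, 3 with library size alone, 0 scaled to the markers, 16 at 0.05 and 1 (without S1 or S3) to 13 (without A129) with a library left out, and 5 were higher, against 3 without a filter. Pathway genes lower in A10i mice numbered 10, against 16 by DESeq2, 4 with library size alone, 0 scaled to the markers, 4 in the joint fit, 21 at 0.05 and 2 (without any of S1, S2 and S3) to 16 (without A116) with a library left out, and 5 were higher, against 3 to 5 with a library left out. These settings for pathway genes were chosen after seeing the data. Scaled to the markers, calls over all genes in DMSO mice went from 1643 to 208 lower and from 2215 to 6631 higher. In A10i mice they went from 1546 to 133 lower and from 2333 to 5057 higher. With library size alone the lower calls over all genes were 708 in DMSO and 577 in A10i mice. By DESeq2 they were 2286 of 17117 and 2069 of 16971, and at a threshold of 0.05 they were 3145 and 2984. The fit of all 11 libraries gave 1911 of 17480 in DMSO and 932 in A10i mice. Without a filter 1869 of 31308 were lower and 2472 higher in DMSO mice. With a library left out, lower calls were 565 to 1763 in DMSO and 543 to 1821 in A10i mice. Higher calls there were 1062 to 2544 in A10i mice. The cause of these shifts was not tested, except that a threshold of 0.05 admits more genes by construction. Scaled to the markers, log2 fold changes turned positive in DMSO mice for Acat1 (0.27), Bcat2 (0.50), Bckdha (0.071), Bckdhb (0.062), Dbt (0.030) and Mccc2 (0.040), and in A10i mice for Oxct1 (0.10), Acat1 (0.17), Bcat2 (0.41) and Bckdha (0.064). With library size alone, which moved the median of all genes to 0.21 and 0.18, Bcat2 became 0.18 and 0.17. With a library left out Bcat2 ran from −0.086 to 0.059 in DMSO and −0.075 to 0.058 in A10i mice. Between A10i and DMSO, where no member was called, Bcat2 turned to −0.0023 by DESeq2, −0.0023 with DESeq2 size factors, −0.011 with library size alone, −0.083 scaled to the markers, −0.0043 without a filter and −0.0013 in the joint fit, and Bckdha and Mccc2 became −0.0072 and −0.056 scaled to the markers. With a library left out the ranges there were −0.083 to 0.085 for Acat1, −0.079 to 0.077 for Bcat2, −0.039 to 0.24 for Bckdha, −0.21 to 0.049 for Bckdhb, −0.25 to 0.086 for Dbt and −0.088 to 0.12 for Mccc2. The log2 ratio differences ran from −0.015 to 0.082 for Bckdha/Bckdhb in DMSO against Sham, and from −0.17 to 0.22 for Bckdk/Ppm1k and −0.70 to 0.019 for Bcat1/Bcat2 between A10i and DMSO. No ratio passed after adjustment under any alternative. Between A10i and DMSO with a mouse left out, the smallest p that 3 and 4 mice allow is 0.0571. Against Sham that is already the smallest p with all mice, and it is larger with a mouse left out. In these settings no ratio could pass, so they say nothing on how stable the ratios are. No paired analysis was possible because the mice of the groups share no replicate numbers.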
